A study of Mus musculus with 9 samples.

Results

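The genes described here are 35 genes of the endoplasmic reticulum (ER) folding machinery and the unfolded protein response, out of 53465 genes in the deposited count table. They were chosen by name for their roles, as stress sensors, chaperones, disulfide isomerases and oxidases, and degradation factors, with earlier results of these data known. No measured value enters the rule itself. RNA was sequenced from cultured mouse adult fibroblasts (MAFs) in 9 libraries, of which 3 came from control cells, 3 from cells given DPI for 24 h and 3 from cells given DPI for 72 h. DPI was read as diphenyleneiodonium, which blocks flavin-dependent enzymes, because the study's title concerns a flavin cofactor. The labels give no strain, genotype, animal age or DPI dose, and do not say whether control cells received vehicle or when they were collected, so time in culture and DPI cannot be told apart. Separate cultures are not mentioned for the 3 libraries within each group either, and p-values may then reflect technical spread alone.

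Proteins of the secretory pathway fold in the ER with the help of Hsp70-type and lectin chaperones, and protein disulfide isomerases form their disulfide bonds. When unfolded proteins build up, the membrane sensors IRE1, ATF6 and PERK start the unfolded protein response. IRE1 splices Xbp1 mRNA, ATF6 is cut to release a transcription factor, and PERK slows translation and raises ATF4. XBP1 and ATF6 act through promoter elements shared by many chaperone genes, and proteins that cannot be folded are removed by ER-associated degradation. Fibroblasts carry a large load of secreted collagen and fibronectin. Gene counts show neither Xbp1 splicing nor the cutting of ATF6 nor any protein amount.

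Library totals ranged from 15292736 to 17923656 counts. Control replicate 2 was unlike the remaining controls, with a chi-square per degree of freedom of 33.7 and 28.5 against controls 1 and 3, and of 4.45 between controls 1 and 3. Abundant fibroblast markers were present. Col1a1 averaged 1705 TMM-normalized CPM in controls, 4169 CPM at 24 h and 3500 CPM at 72 h, and Vim averaged 1644, 1939 and 2434 CPM. However, the fibroblast marker Thy1 averaged between 0 and 0.04 CPM and Lum between 0.02 and 0.04 CPM in every group, and neither could be tested. The summed level of the 10 fibroblast markers differed between the groups. It was 6637 to 8203 CPM in controls, 12742 to 13425 CPM at 24 h and 10839 to 12444 CPM at 72 h. At 24 h, 8 of the 8 that could be tested rose (100%, against 12.4% of all genes tested). At 72 h, 3 of the 8 were higher (37.5%, against 4.73%) and 0 were lower, while 2 had a log2 change below 0. Markers of other cells were measured too. The summed level of 8 macrophage markers was 6.46 to 9.76 CPM in controls, 8.01 to 9.56 CPM at 24 h and 5.68 to 7.11 CPM at 72 h, with Adgre1 at 0. That of 6 endothelial markers was 2.04 to 2.23 CPM in controls, 3.59 to 4.77 CPM at 24 h and 1.10 to 2.16 CPM at 72 h. That of 6 epithelial markers was 1.38 to 2.17 CPM in controls, 1.35 to 1.58 CPM at 24 h and 6.44 to 6.67 CPM at 72 h, with Krt5 at 0. For 7 plasma cell markers it was 106 to 119 CPM in controls, 119 to 122 CPM at 24 h and 123 to 137 CPM at 72 h, with Mzb1, Cd79b and Pou2af1 at 0. Nearly all of this was Sdc1, the 1 testable gene, which rose by 0.24 on the log2 scale at 72 h (adjusted p = 0.0464). Their part in the changes of the ER genes was not tested.

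Some of these genes carry promoter elements through which the response is known to act. The elements are shown because genes with and without them are compared further on. Promoter sequences (250 bases before to 50 after the start) were found in the RefSeq table of GRCm38.p6 for 29 of the 35 genes, and Derl1, Hspa13, Hyou1, Creb3l1, Manf and Atf6 are named only. The ER stress response element (ERSE), which NF-Y and ATF6 or XBP1 are known to bind, was searched on both strands as CCAAT and CCACG with 9 bases between them, with an exact match at the fixed letters. It was present in 10 of the 29 genes (34.5%) and in 39 of all 32851 promoters (0.119%), and Hsp90b1 held 2 copies. The matches are given next in the direction in which they read CCAAT to CCACG, with the fixed letters in capitals.
Hspa5: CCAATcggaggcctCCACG
Calr: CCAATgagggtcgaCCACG
Derl3: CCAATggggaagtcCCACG
Hsp90b1 upstream: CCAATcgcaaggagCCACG
Hsp90b1 downstream: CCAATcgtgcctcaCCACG
Canx: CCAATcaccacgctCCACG
Pdia6: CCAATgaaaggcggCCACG
Ero1lb: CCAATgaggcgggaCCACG
Dnajc3: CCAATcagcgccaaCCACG
Creld2: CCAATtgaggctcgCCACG
Syvn1: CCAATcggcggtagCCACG

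ERSE-II, searched in the same way as ATTGG and CCACG with 1 base between them, was present in 2 of the 29 genes (6.90%) and in 12 of all promoters (0.0365%). It shares the letters CCACG with ERSE. The 2 matches were as follows, again with the fixed letters in capitals.
Herpud1: ATTGGgCCACG
Dnajb11: ATTGGcCCACG

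The core of the XBP1 element (UPRE), TGACGTGG, was in 0 of the 29 promoters and 0.676% of all promoters; its reverse strand contains CCACG. The core of the element bound by ATF4 with C/EBP factors (CARE), TGATGCAA, was in the promoter of Herpud1 (1 of 29, 3.45%) and in 0.895% of all promoters. A match is a description of the letters and not a bound site, and a missing match says only that these letters are not in the window. The whole promoters of 4 genes whose values are described further on are printed next, 5′ to 3′ in the direction of the gene, with every match in capitals. They are Calr (chr8:84846882-84847181, minus strand), Hspa5 (chr2:34771840-34772139, plus strand), Herpud1 (chr8:94386179-94386478, plus strand) and Ero1l (chr14:45318523-45318822, minus strand), in GRCm38.p6. Calr and Hspa5 hold 1 exact ERSE match each, and Herpud1 holds exact matches to ERSE-II and the CARE core. The Ero1l window holds none of the 4 patterns. Elements that differ from these letters were not searched.
Calr promoter: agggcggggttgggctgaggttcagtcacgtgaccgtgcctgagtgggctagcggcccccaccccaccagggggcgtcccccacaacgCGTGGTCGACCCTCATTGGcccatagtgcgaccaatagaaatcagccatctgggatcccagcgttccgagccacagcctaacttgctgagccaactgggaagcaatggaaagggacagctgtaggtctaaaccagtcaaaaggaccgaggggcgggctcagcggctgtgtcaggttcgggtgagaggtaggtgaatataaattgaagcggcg
Hspa5 promoter: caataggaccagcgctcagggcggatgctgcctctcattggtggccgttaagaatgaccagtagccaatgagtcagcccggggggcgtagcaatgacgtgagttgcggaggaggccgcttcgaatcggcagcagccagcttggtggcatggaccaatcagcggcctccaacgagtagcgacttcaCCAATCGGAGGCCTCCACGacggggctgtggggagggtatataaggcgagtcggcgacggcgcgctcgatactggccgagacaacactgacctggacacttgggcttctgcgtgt
Herpud1 promoter: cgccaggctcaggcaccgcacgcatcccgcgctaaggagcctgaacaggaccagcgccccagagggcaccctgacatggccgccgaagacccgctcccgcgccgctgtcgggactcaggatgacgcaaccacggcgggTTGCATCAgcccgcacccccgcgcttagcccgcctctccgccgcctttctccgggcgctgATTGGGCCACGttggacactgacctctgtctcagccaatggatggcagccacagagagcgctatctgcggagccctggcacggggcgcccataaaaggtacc
Ero1l promoter: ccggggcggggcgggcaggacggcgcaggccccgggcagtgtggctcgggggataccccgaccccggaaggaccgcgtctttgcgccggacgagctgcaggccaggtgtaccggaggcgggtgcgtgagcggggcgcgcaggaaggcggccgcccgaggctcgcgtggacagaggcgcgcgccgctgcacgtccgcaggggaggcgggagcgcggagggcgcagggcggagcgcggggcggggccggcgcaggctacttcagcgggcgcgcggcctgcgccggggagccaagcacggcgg

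Per kilobase of exon, the most abundant of the 35 transcripts in control cells belonged to the general chaperones. Hsp90b1, the ER form of Hsp90 (GRP94), was at 268 CPM per kb, P4hb, the main protein disulfide isomerase, at 260, Calr, the lectin chaperone calreticulin, at 258, and Hspa5, the ER Hsp70 chaperone BiP, at 257. Neighbours in this order did not differ beyond the spread between control libraries. At 24 h Calr came first with 390 CPM per kb, ahead of P4hb with 310, Hsp90b1 with 296 and Hspa5 with 235. At 72 h P4hb was at 312 CPM per kb, Calr at 293, Hsp90b1 at 275 and Hspa5 at 239. At the other end of the scale stood Crebrf with 3.81 CPM per kb in controls, Creld1 with 1.18 and Derl3 with 0.0300. Derl3, a derlin of ER-associated degradation, had 1, 1 and 1 counts in the control libraries, 3, 3 and 1 at 24 h and 4, 3 and 2 at 72 h, and was the 1 gene of the 35 that did not pass the filter on low counts. The other 34 were tested.

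**Figure D1:**
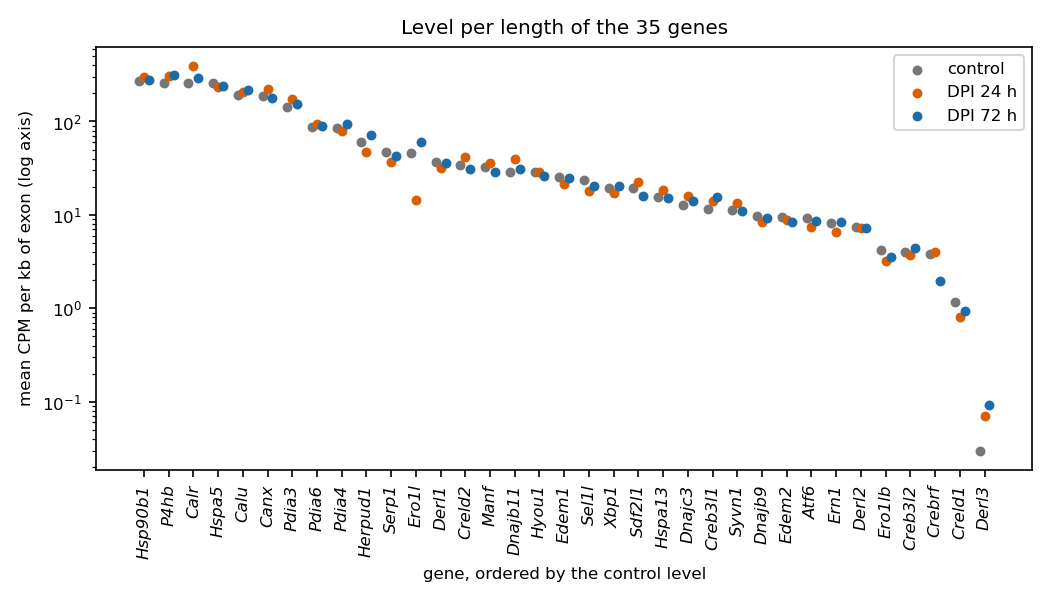
Mean level of each of the 35 genes in CPM per kilobase of exon on a log axis, for control, DPI 24 h and DPI 72 h. Calr stands at 390 CPM per kb at 24 h, and Derl3 lies below 0.1 CPM per kb in all 3 groups.

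The 35 genes together took 8495, 8897 and 8567 CPM in controls, 9242, 9308 and 9221 CPM at 24 h and 9151, 8808 and 9013 CPM at 72 h. All 24 h libraries lay above all controls, while the 72 h libraries overlapped with control replicate 2. Abundant genes weigh most in this sum, and Calr alone averaged 743 CPM in controls and 1123 CPM at 24 h. Of the 34 tested genes, 17 had a log2 change above 0 at 24 h and 17 below. Since these are bulk samples, fewer cells expressing a gene and less of its RNA per cell cannot be told apart.

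At 24 h of DPI, the lectin chaperones Calr and Canx, the BiP co-chaperones Dnajb11 and Dnajc3, the Hsp70-like Hspa13 and the isomerases P4hb and Pdia3 rose, while the oxidases Ero1l and Ero1lb, 3 of 4 called degradation factors and the sensor Atf6 fell. With edgeR's quasi-likelihood test, Benjamini-Hochberg adjusted over all genes tested, 10 of the 34 tested genes were higher (29.4%, against 12.4% of all 14088 genes tested) and 7 were lower (20.6%, against 12.3%). The median log2 change was -0.01 both for the 34 genes and for all genes. The 34 genes had a median level of 114 CPM, against 25.7 CPM for all genes tested, and the part of this in the shares called was not tested. Of the 17 called genes, 15 changed by less than 0.5 on the log2 scale. Upper-quartile scaling in place of TMM moved the split to 7 higher and 9 lower, and it moved the median of all genes to -0.05. Without control replicate 2, 14 were higher and 8 lower.

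Ero1l, which encodes the oxidase ERO1 alpha that passes electrons from protein disulfide isomerase to oxygen through its flavin, had the widest change of the 35 (chromosome 14, 45283087 to 45318771, minus strand, GRCm38). Its level was 74.5, 75.5 and 78.6 CPM at 24 h, against 245, 220 and 256 CPM in controls. Every 24 h library was far below every control library. The mean was 76.2 ± 2.14 CPM at 24 h and 240.5 ± 18.5 CPM in controls (SD, n = 3 each), which is 0.317-fold, and the log2 change was -1.66 ± 0.08 (SE, adjusted p = 1.83e-07). The related oxidase Ero1lb, on chromosome 13, was at 20.1, 21.3 and 22.8 CPM at 24 h, against 27.3, 28.2 and 29.0 CPM in controls. The groups did not overlap, and the log2 change was -0.40 ± 0.10 (adjusted p = 0.0185). This call was lost without control replicate 3 (adjusted p = 0.0526), 24 h replicate 1 (0.0764) or 24 h replicate 2 (0.0625).

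Calr, calreticulin, which holds glycoproteins and buffers ER calcium, rose most (chromosome 8, 84841850 to 84846934, minus strand). It stood at 1107, 1120 and 1143 CPM at 24 h, against 741, 773 and 715 CPM in controls, so the groups were far apart relative to their spread. The means were 1123 ± 18 CPM at 24 h and 743 ± 29.2 CPM in controls (SD, n = 3 each), a 1.51-fold difference, with a log2 change of 0.60 ± 0.05 (adjusted p = 1.24e-05). Canx, the membrane-bound partner calnexin, was at 1046, 1035 and 1021 CPM at 24 h, against 876, 861 and 868 CPM in controls. It too rose without overlap, by 0.25 ± 0.05 (adjusted p = 0.00289). Calu, the calcium-binding protein calumenin, was higher in all 3 libraries at 24 h (954 to 963 CPM, against 859 to 926 CPM in controls), but its log2 difference of 0.09 did not pass (adjusted p = 0.202).

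Among the 8 Hsp70 and Hsp90 chaperones and cofactors, 3 rose (37.5%, against 12.4% of all genes tested) and 0 fell (against 12.3%). Dnajb11, an Hsp40 co-chaperone of BiP (chromosome 16, 22857845 to 22879634, plus strand), was at 126, 133 and 128 CPM at 24 h, against 87.5, 97.6 and 96.5 CPM in controls. Its 24 h libraries all exceeded its controls, with a log2 change of 0.46 ± 0.06 (adjusted p = 0.000483). Dnajc3, a co-chaperone that also inhibits PERK (p58IPK), was at 85.4, 82.4 and 80.7 CPM at 24 h, against 66.5, 60.8 and 67.9 CPM in controls. It rose without overlap, by 0.35 ± 0.06 (adjusted p = 0.00209). Hspa13, an Hsp70-like ATPase of microsomes, was at 131, 124 and 124 CPM at 24 h, against 105, 105 and 111 CPM in controls, and rose by 0.24 ± 0.06 (adjusted p = 0.00908). BiP itself did not pass the test. Hspa5 was at 1002, 1023 and 960 CPM at 24 h, against 1023, 1188 and 1046 CPM in controls, with a log2 difference of -0.13 ± 0.07 (adjusted p = 0.226). The highest 24 h library and the lowest control were both at 1023 CPM. Hsp90b1, Hyou1, Dnajb9 and Sdf2l1 did not pass either, with log2 differences of -0.21 to 0.20. Of these, Hsp90b1 did pass without control replicate 2 (adjusted p = 0.00821) and in DESeq2 (0.0275), and Sdf2l1 without control replicate 2 (0.0125), both higher at 24 h.

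P4hb and Pdia3, isomerases of the thioredoxin family, both rose at 24 h. P4hb, which is also the beta subunit of collagen prolyl 4-hydroxylase (chromosome 11, 120560298 to 120573253, minus strand), was at 879, 893 and 885 CPM at 24 h, against 724, 799 and 710 CPM in controls. The lowest 24 h library was well above the highest control, control replicate 2, and the log2 change was 0.25 ± 0.06 (adjusted p = 0.00836). Pdia3, which works with calnexin and calreticulin on glycoproteins, was at 550, 549 and 533 CPM at 24 h, against 435, 474 and 425 CPM in controls. It also rose without overlap, by 0.29 ± 0.06 (adjusted p = 0.00387). Pdia4 and Pdia6 had log2 differences of -0.12 and 0.12 and did not pass, although Pdia6 did without control replicate 2 (adjusted p = 0.00348). Of the EGF-like and MANF group, Creld2, a secreted ER protein, was at 56.5, 57.8 and 56.2 CPM at 24 h, against 41.9, 54.7 and 43.1 CPM in controls. Control replicate 2 came closest to the 24 h libraries, without overlap. The log2 change was 0.29 ± 0.09 (adjusted p = 0.0464), and the call was lost when any library other than control replicate 2 was left out (adjusted p = 0.0681 to 0.156). Manf and Creld1 did not pass, with log2 differences of 0.13 and -0.53. For Manf the test did pass without control replicate 2 (adjusted p = 0.00172).

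Among the degradation factors, 3 of 7 tested genes fell (42.9%, against 12.3% of all genes tested) and 1 rose (14.3%, against 12.4%). Herpud1, a membrane scaffold of the HRD1 ubiquitin ligase complex (chromosome 8, 94386438 to 94395377, plus strand), was at 107, 110 and 114 CPM at 24 h, against 130, 153 and 136 CPM in controls. Its groups did not overlap, with a log2 change of -0.34 ± 0.07 (adjusted p = 0.0044). Sel1l, the adaptor of that complex, was at 149, 151 and 158 CPM at 24 h, against 215, 178 and 216 CPM in controls, and fell by 0.41 on the log2 scale (SE 0.08, adjusted p = 0.003). Edem1, a lectin that hands misfolded glycoproteins to the complex, was at 137, 136 and 142 CPM at 24 h, against 160, 166 and 166 CPM in controls, and fell by 0.25 (SE 0.06, adjusted p = 0.00954). The ligase Syvn1 (HRD1) itself moved the other way. It was at 59.3, 64.5 and 70.4 CPM at 24 h, against 54.2, 51.5 and 57.0 CPM in controls, with a log2 change of 0.26 ± 0.07 (adjusted p = 0.0262). That call was lost without control replicate 1 (adjusted p = 0.0615), 24 h replicate 2 (0.0768) or 24 h replicate 3 (0.13), and under upper-quartile scaling (0.0517). Derl1, Derl2 and Edem2 had log2 differences of -0.20, -0.03 and -0.11 and did not pass, although Derl1 did without control replicate 3 (adjusted p = 0.0311). Serp1, a stabiliser of proteins at the translocon, was at 182, 152 and 174 CPM at 24 h, against 214, 240 and 205 CPM in controls. It fell by 0.37 (SE 0.08, adjusted p = 0.00669), with no overlap.

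Of the 6 sensors and transcription factors, 1 fell (16.7%, against 12.3% of all genes tested) and 1 rose (16.7%, against 12.4%) at 24 h. A single call each way is no result about this role. Atf6 (chromosome 1, 170704674 to 170867771, minus strand) was at 70.3, 70.8 and 65.0 CPM at 24 h, against 93.3, 75.7 and 90.4 CPM in controls. The lowest control was replicate 2 and still lay above every 24 h library, with a log2 change of -0.33 ± 0.08 (adjusted p = 0.0136, and 0.0581 without 24 h replicate 3). Creb3l1, a membrane-bound transcription factor known for its role in collagen secretion by bone cells in mice (OASIS; chromosome 2, 91982328 to 92024502, minus strand), was at 34.1, 40.1 and 34.9 CPM at 24 h, against 30.6, 29.7 and 29.0 CPM in controls. It rose by 0.29 ± 0.08 (adjusted p = 0.0282). The call was lost without control replicate 3 (adjusted p = 0.0843), 24 h replicate 2 (0.125) or 24 h replicate 3 (0.0573), and under upper-quartile scaling (0.0562). Ern1, which encodes IRE1 alpha (chromosome 11, 106394650 to 106487852, minus strand), was at 51.2, 59.5 and 51.0 CPM at 24 h, against 74.9, 53.0 and 74.7 CPM in controls. Here control replicate 2 lay within the 24 h range, and the log2 difference of -0.32 ± 0.12 did not pass (adjusted p = 0.0769, and 0.000203 without control replicate 2). Xbp1 and Creb3l2 did not pass, with log2 differences of -0.21 and -0.11, and Xbp1 did without control replicate 1 (adjusted p = 0.0272). Crebrf was at 36, 31.7 and 34.8 CPM at 24 h, against 38.5, 26.6 and 32.9 CPM in controls, and did not pass either (0.07 ± 0.12, adjusted p = 0.737).

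**Figure D2:**
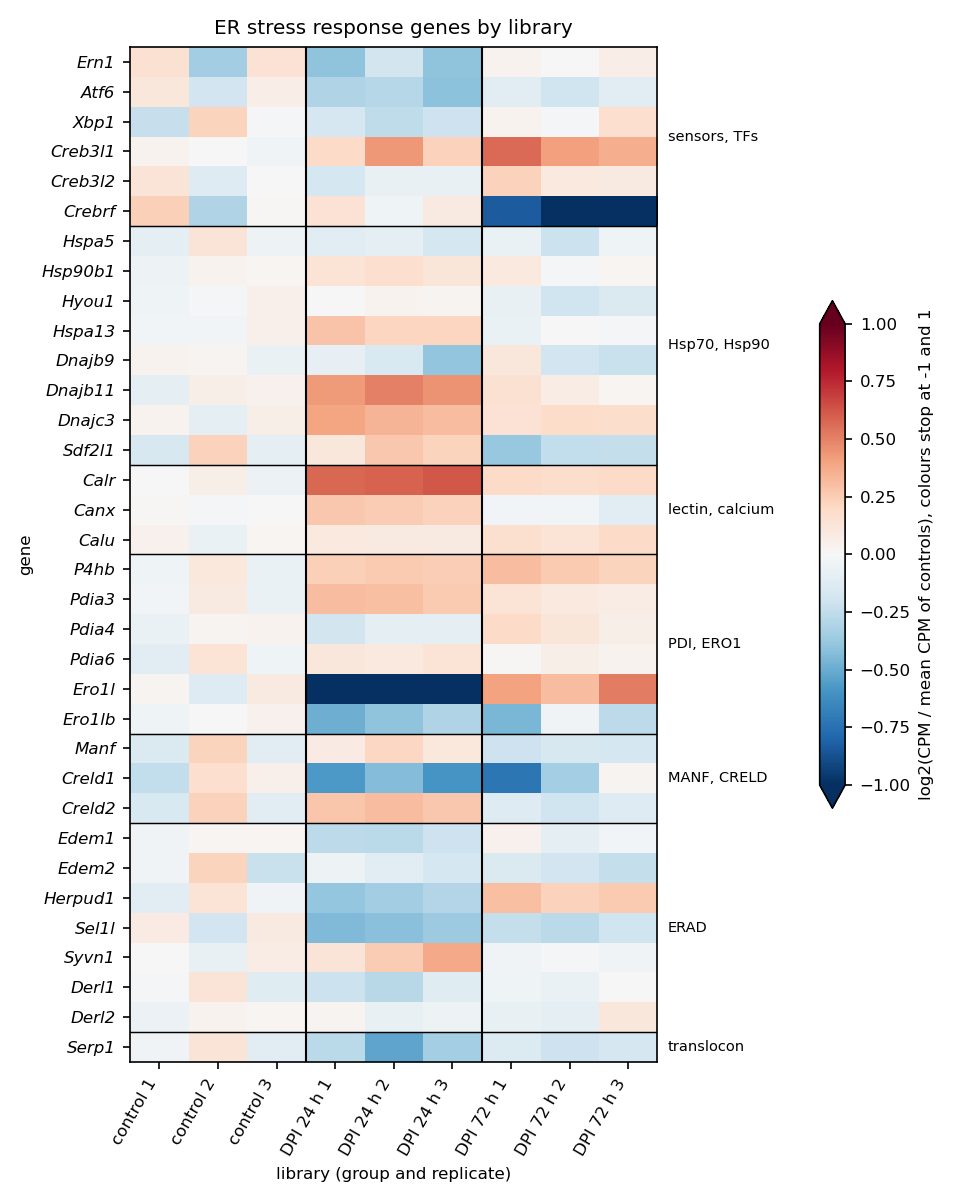
Log2 difference of each of the 34 tested genes from its control mean in each of the 9 libraries (columns, control to 72 h from left to right), grouped by role, with red above and blue below the control mean and colours that stop at -1 and 1. Ero1l is low in all 3 libraries at 24 h and Crebrf in all 3 at 72 h, and control replicate 2 differs from controls 1 and 3 for genes such as Ern1.

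At 72 h of DPI, some genes stood on the other side of the control level. Ero1l and Herpud1, both lower than control at 24 h, were higher than control at 72 h, Calr, P4hb and Creb3l1 were higher at both times, and Crebrf was lower at 72 h. The 72 h calls of Herpud1, Calr and P4hb were lost in 11, 12 and 5 of 17 alternative settings. Of the 34 tested genes, 5 were higher (14.7%, against 4.73% of all genes tested) and 1 was lower (2.94%, against 3.83%). The median log2 change was -0.03 for the 34 genes and -0.01 for all genes. Of the 6 called genes, 1 changed by at least 0.5 on the log2 scale. The 24 h and 72 h comparisons share their control libraries, so values at both times are given side by side and their agreement is not tested. Upper-quartile scaling gave 3 higher and 2 lower, and leaving out control replicate 2 gave 7 higher and 3 lower.

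Crebrf had the largest change at 72 h (chromosome 17, 26715650 to 26776635, plus strand). Its product is known as a negative regulator of the transcription factor CREB3. The level was 18.3, 16.2 and 16.3 CPM at 72 h, against 38.5, 26.6 and 32.9 CPM in controls. All 72 h libraries were below all controls, whose lowest value was in replicate 2. The means were 16.9 ± 1.22 CPM at 72 h and 32.7 ± 5.95 CPM in controls (SD, n = 3 each), a 0.519-fold level, and the log2 change was -0.95 ± 0.13 (adjusted p = 0.000766). Creb3l1, which like CREB3 is a transcription factor released from the ER membrane, was at 44.0, 39.5 and 38.2 CPM at 72 h, against 30.6, 29.7 and 29.0 CPM in controls. It rose without overlap, 1.36-fold, with a log2 change of 0.45 ± 0.08 (adjusted p = 0.00662). Ern1, Atf6, Xbp1 and Creb3l2 did not pass, with log2 differences of 0.04, -0.14, 0.07 and 0.14. Atf6 did pass without control replicate 2 (adjusted p = 0.018).

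Ero1l was at 318, 298 and 343 CPM at 72 h, against 245, 220 and 256 CPM in controls. The lowest 72 h library was above the highest control. The means were 319.6 ± 22.3 CPM at 72 h and 240.5 ± 18.5 CPM in controls (SD, n = 3 each), a 1.33-fold difference, with a log2 change of 0.41 ± 0.07 (adjusted p = 0.00519). Ero1lb was at 20.5, 27.6 and 23.5 CPM at 72 h, against 27.3, 28.2 and 29.0 CPM in controls, and its difference of -0.24 ± 0.10 did not pass (adjusted p = 0.204). P4hb, the isomerase that ERO1 oxidases recharge, was at 920, 890 and 870 CPM at 72 h, against 724, 799 and 710 CPM in controls. It rose by 0.26 ± 0.06 (adjusted p = 0.0149). This call was lost without control replicate 1 (adjusted p = 0.0529), control replicate 3 (0.0645), 72 h replicate 1 (0.0643) or 72 h replicate 2 (0.0574). Pdia3, Pdia4 and Pdia6 had log2 differences of 0.10, 0.12 and 0.04 and did not pass, although Pdia3 did without control replicate 2 (adjusted p = 0.0208).

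Calr was at 850, 837 and 848 CPM at 72 h, against 741, 773 and 715 CPM in controls. The groups were separate, but the log2 change of 0.19 ± 0.05 passed narrowly (adjusted p = 0.0408). It was lost when any library other than control replicate 2 was left out (adjusted p = 0.0757 to 0.137) and under upper-quartile scaling (0.105). Herpud1 was at 172, 164 and 168 CPM at 72 h, against 130, 153 and 136 CPM in controls. It rose by 0.26 ± 0.07 (adjusted p = 0.0376), and that call too was lost when any library other than control replicate 2 was left out (0.0671 to 0.129) and under upper-quartile scaling (0.0796). None of the 8 Hsp70 and Hsp90 chaperones and cofactors passed in edgeR's test, with log2 differences of -0.29 for Sdf2l1 to 0.17 for Dnajc3. At an unadjusted p under 0.05 there were 3, and 0 passed in DESeq2 or limma voom. Hspa5 stood at 1034, 936 and 1056 CPM at 72 h, against 1023, 1188 and 1046 CPM in controls, and the groups overlapped. Manf, Creld1 and Creld2 did not pass, with log2 differences of -0.18, -0.32 and -0.15. Of the remaining degradation factors, Edem1, Edem2, Sel1l, Syvn1, Derl1 and Derl2 had differences of -0.23 to -0.02. Sel1l did pass without control replicate 2 (adjusted p = 0.000372), lower at 72 h, as did Calu (0.0152), higher at 72 h. Calu also passed in DESeq2 (0.0116), at 1005, 989 and 1026 CPM at 72 h, against 926, 859 and 910 CPM in controls.

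**Figure D3:**
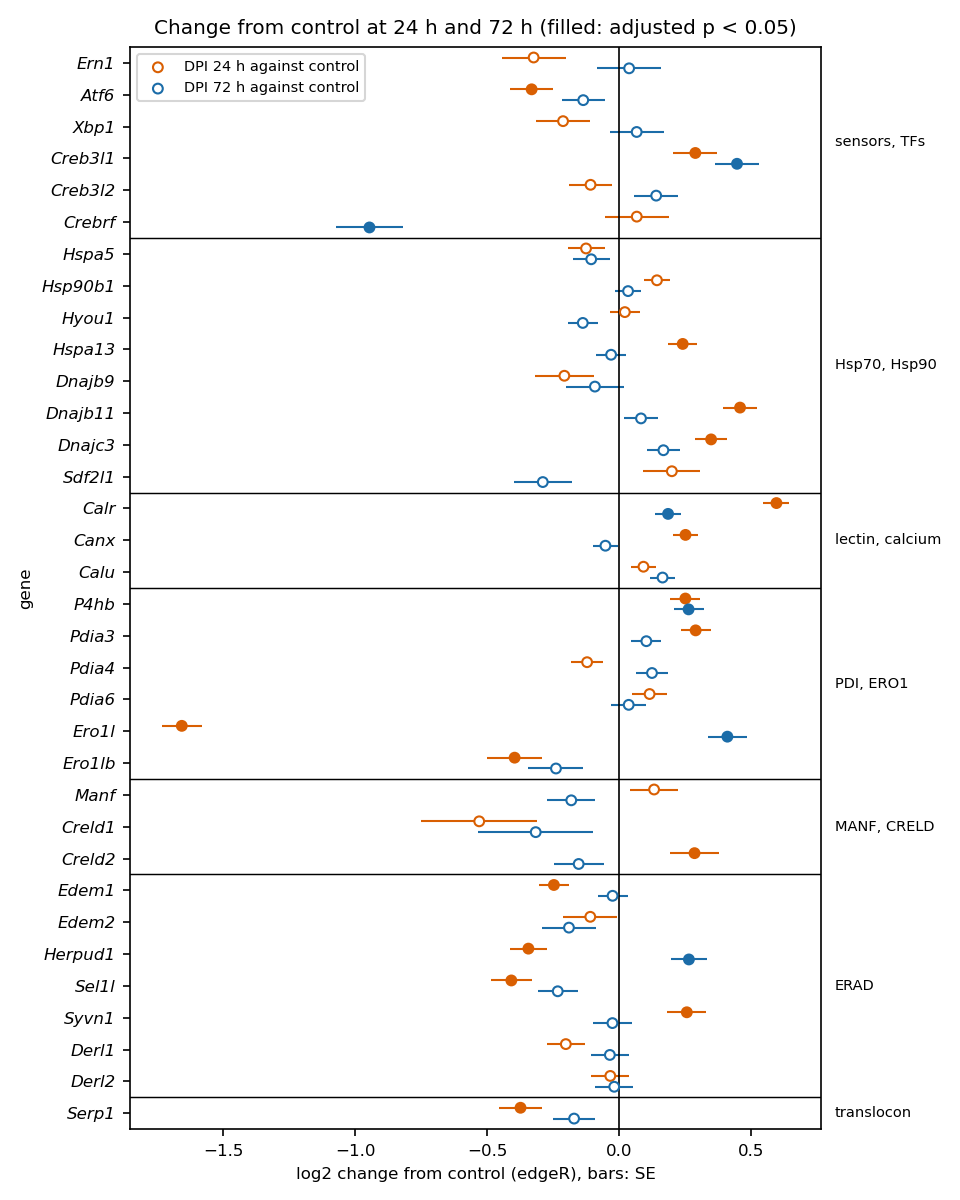
Log2 change and standard error of each of the 34 tested genes, by role from sensors at the top, for DPI 24 h (orange) and DPI 72 h (blue) against control, with filled points for an adjusted p under 0.05. Ero1l lies at -1.66 at 24 h and 0.41 at 72 h, and Crebrf at 0.07 and -0.95.

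The difference between the times was tested directly, as 72 h against 24 h. Ero1l and Herpud1 were higher at 72 h, and Calr, Canx, Dnajb11, Hspa13 and Crebrf were among those lower. Of the 34 tested genes, 4 were higher (11.8%, against 10.1% of all genes tested) and 10 were lower (29.4%, against 11.2%). The median log2 difference was 0.02 for the 34 genes and 0.00 for all genes. Of the 14 called genes, 10 had also been called at 24 h against control. The 2 comparisons share the 24 h libraries, so this count is no separate support for either. Upper-quartile scaling gave 6 higher and 8 lower, and fitting only these 2 groups gave 11 higher and 13 lower. Leaving out control replicate 2, which enters this comparison only through the shared fit, also gave 11 higher and 13 lower.

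Ero1l had 318, 298 and 343 CPM at 72 h, against 74.5, 75.5 and 78.6 CPM at 24 h. This 4.19-fold difference was the widest of the 34, with a log2 value of 2.07 ± 0.08 (adjusted p = 8.66e-08). Herpud1 had 172, 164 and 168 CPM at 72 h, against 107, 110 and 114 CPM at 24 h. It was 1.52-fold higher, with a log2 difference of 0.61 ± 0.07 (adjusted p = 0.000119). Crebrf had 18.3, 16.2 and 16.3 CPM at 72 h, against 36, 31.7 and 34.8 CPM at 24 h, a 0.495-fold level with a log2 difference of -1.01 ± 0.13 (adjusted p = 0.000232). In each of these genes the libraries of the 2 times were far apart.

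Calr, Canx, Dnajb11 and Hspa13, which had risen at 24 h against control, were lower at 72 h than at 24 h. Calr was at 0.752-fold of its 24 h level, with a log2 difference of -0.41 ± 0.05 (adjusted p = 0.000174). Canx had 851, 853 and 809 CPM at 72 h, against 1046, 1035 and 1021 CPM at 24 h, with a difference of -0.30 ± 0.05 (adjusted p = 0.000989). Dnajb11 had 104, 98.8 and 95.3 CPM at 72 h, against 126, 133 and 128 CPM at 24 h, with a difference of -0.38 ± 0.06 (adjusted p = 0.00182). All 3 genes showed no overlap between the times. Hspa13 had 102, 107 and 105 CPM at 72 h, against 131, 124 and 124 CPM at 24 h, with a difference of -0.27 ± 0.06 (adjusted p = 0.00538). Sdf2l1, a partner of the Hsp40 proteins of the ER, had 16.6, 18.3 and 18.4 CPM at 72 h, against 23.5, 26.1 and 25.3 CPM at 24 h, with a difference of -0.49 ± 0.11 (adjusted p = 0.00926). Creld2 had 42.6, 40.5 and 42.6 CPM at 72 h, against 56.5, 57.8 and 56.2 CPM at 24 h, with a difference of -0.44 ± 0.09 (adjusted p = 0.00713). These genes likewise did not overlap between the times. P4hb did not pass here, with a difference of 0.01 ± 0.06 (adjusted p = 0.911).

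The remaining 5 calls were each lost when single libraries were left out. Pdia3 differed by -0.19 (adjusted p = 0.0393), which was lost without control replicate 1 (0.0521) and without any DPI library (0.0675 to 0.134). Manf, a secreted protein that also binds BiP, had 100, 103 and 103 CPM at 72 h, against 122, 134 and 124 CPM at 24 h. Its groups were separate, with a difference of -0.31 ± 0.09 (adjusted p = 0.0312, and 0.0652 to 0.126 without any 1 DPI library). Syvn1 differed by -0.28 (adjusted p = 0.0195), which was lost without 24 h replicate 2 (0.0612) or 3 (0.0991) or 72 h replicate 1 (0.0651), 2 (0.0564) or 3 (0.0676). Pdia4, an isomerase with an added thioredoxin-like domain, had 233, 222 and 213 CPM at 72 h, against 180, 192 and 191 CPM at 24 h. It was higher by 0.25 ± 0.06 (adjusted p = 0.0158), and this was lost without 24 h replicate 1 (0.0773) or 72 h replicate 1 (0.068) or 2 (0.0506). Edem1 was higher by 0.22 ± 0.06 (adjusted p = 0.0184), which was lost without 24 h replicate 1 (0.0724) or 2 (0.0735) or 72 h replicate 1 (0.0783) or 3 (0.0595). Of the 20 genes not called here, 10 passed without control replicate 2, among them Ern1 (adjusted p = 0.000637), Sel1l (0.00473) and Xbp1 (0.00564), all higher at 72 h. Ern1 had 69.2, 67.8 and 70.8 CPM at 72 h, against 51.2, 59.5 and 51.0 CPM at 24 h, without overlap. With all libraries its difference of 0.36 ± 0.12 did not pass (adjusted p = 0.0575), and it passed without control replicate 1 (0.0482).

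**Figure D4:**
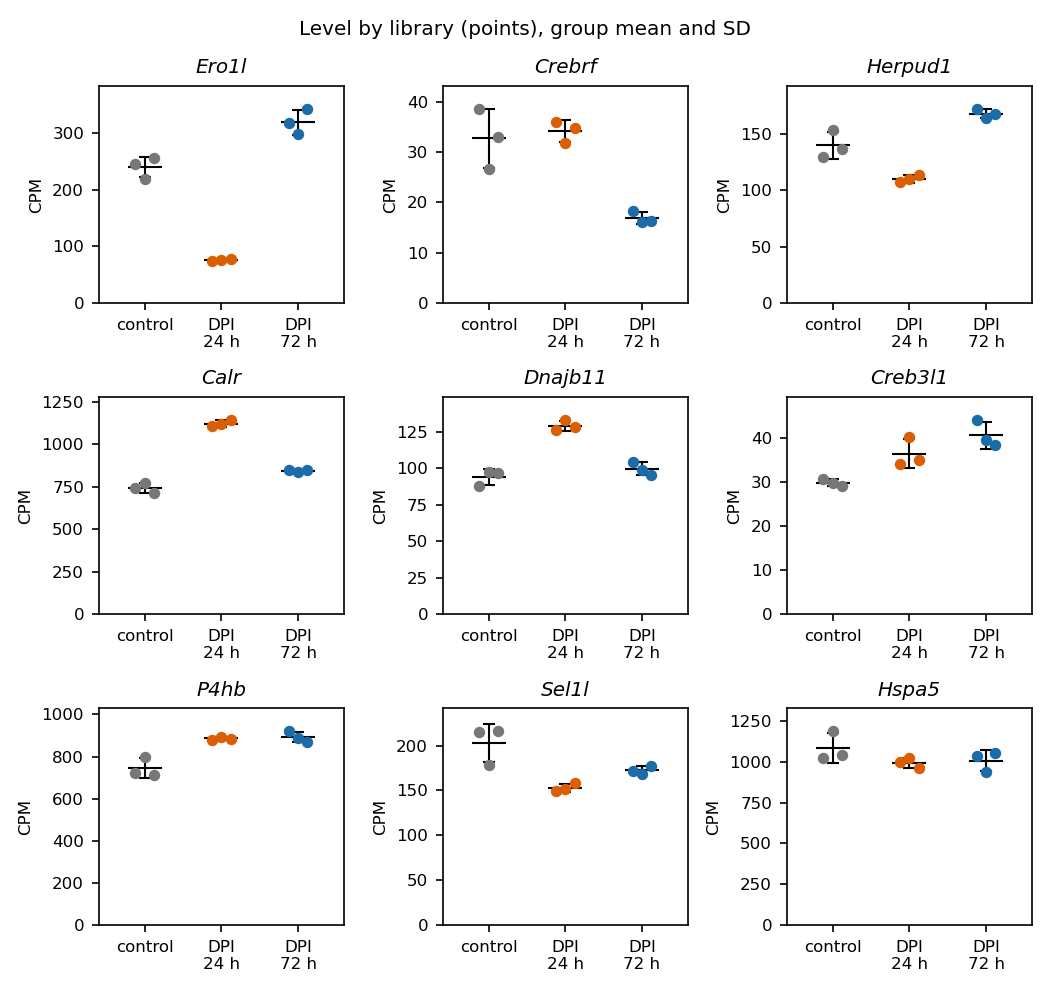
TMM-normalized CPM in each library (points) for 9 of the genes, chosen after their values were seen, with bars for the group mean and SD (n = 3), for control, DPI 24 h and DPI 72 h from left to right. Ero1l lies near 76.2 CPM at 24 h and 319.6 CPM at 72 h, and Calr lies highest at 24 h.

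Over the 3 comparisons, 21 of the 34 tested genes were called at least once and 13 were called in none. Those 13 include Hspa5, Hsp90b1, Hyou1, Xbp1, Ern1 and Dnajb9, genes much used as readouts of ER stress. Other genes so used, such as Herpud1, Dnajb11, Edem1 and Sdf2l1, were called at least once. At 72 h against 24 h, Ern1, Xbp1 and Hyou1 passed in 6, 4 and 3 of 17 alternative settings. A missed threshold does not show that their levels were equal.

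Genes grouped by the promoter elements shown above, or by the factor they are known to depend on in mouse fibroblasts, changed in both directions at 24 h. The counts stand beside 12.4% higher and 12.3% lower over all genes tested at 24 h, and 4.73% and 3.83% at 72 h, and a single call in a list this short is no result about the list. Of the 10 genes with an ERSE match, 9 were tested. At 24 h, 5 of these rose (Calr, Canx, Creld2, Dnajc3 and Syvn1) and 1 fell (Ero1lb), with a median log2 change of 0.25. The calls of Creld2, Syvn1 and Ero1lb were lost in 11, 5 and 3 of 17 alternative settings. Hspa5, Hsp90b1 and Pdia6, which hold the same element, did not pass. Of the 19 tested genes whose promoter held no ERSE match, 3 rose and 5 fell, with a median of -0.12. These 19 include Dnajb11 and Herpud1, which hold ERSE-II. At 72 h, 1 of the 9 was higher and 0 were lower, with a median of -0.03, while 3 of the 19 were higher and 1 lower, with a median of 0.04. Of the genes with ERSE-II, Dnajb11 rose and Herpud1 fell at 24 h. Of 6 genes that depend on XBP1, 2 rose (Dnajb11 and Dnajc3) and 2 fell (Edem1 and Serp1) at 24 h, and 0 passed at 72 h, where 1 had an unadjusted p under 0.05 and 0 passed in DESeq2 or limma voom. Of 7 that depend on ATF6, 1 rose (Calr) and 2 fell (Herpud1 and Sel1l) at 24 h, and 2 rose (Calr and Herpud1) at 72 h. The median log2 changes were -0.05 and 0.01 for the XBP1 list and -0.12 and 0.03 for the ATF6 list, at 24 h and 72 h.

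The PERK arm and other genes of the ER machinery were described from further lists, to be read beside the same shares over all genes. Those were 12.4% higher and 12.3% lower at 24 h, and 4.73% and 3.83% at 72 h. For 72 h against 24 h they were 10.1% and 11.2%. Of 12 tested genes of the PERK arm and its ATF4 targets, 8 fell and 1 rose at 24 h, with a median log2 change of -0.68. The 1 that rose was Eif2ak3, which encodes PERK itself, at 0.29. Trib3, a pseudokinase induced by ATF4 and CHOP, fell most clearly, to 42.3 ± 0.127 CPM against 147 ± 25.5 CPM in controls, with a log2 change of -1.80. Sesn2, a stress sensor upstream of mTORC1, fell by 0.87. At 72 h, 2 of the 12 were higher and 0 were lower, with Sesn2 at 0.28 and Ppp1r15b, a subunit of the eIF2 alpha phosphatase, at 0.23. At 72 h against 24 h, 9 of the 12 were higher and 1 was lower, with a median of 0.69, Trib3 at 1.76 and Sesn2 at 1.15. The 1 lower was Eif2ak3, at -0.38. Of 13 other regulators, 3 rose and 2 fell at 24 h, with Wfs1, an ER membrane protein, at -0.62 and Nfyc, a subunit of NF-Y, at 0.42. At 72 h, 1 of these 13 was called, Nfyb, another NF-Y subunit, at 0.25. Of 17 other disulfide isomerases and redox partners, 2 rose and 3 fell at 24 h, with Gpx8, an ER peroxidase, at 0.82 and Tmx4, a membrane-bound thioredoxin-like protein, at -0.49. At 72 h, 1 was higher and 1 lower, namely Txndc5 at 0.26 and Txndc16 at -0.43. Of 25 other chaperones and cofactors, 1 rose and 6 fell at 24 h, with Sil1, the nucleotide exchange factor of BiP, at -0.54 and Dnajc25 at 0.39. At 72 h, 0 were higher and 1 was lower, the prolyl isomerase Fkbp11 at -0.43. Of 12 enzymes of the calnexin cycle, 3 rose and 0 fell at 24 h, led by Man1a, a mannosidase, at 0.52 and Lman2 at 0.29. At 72 h, 0 of these 12 passed in edgeR's test, and 2 had an unadjusted p under 0.05. Of 27 other degradation factors, 2 rose and 4 fell at 24 h, with Erlin1, an ER membrane scaffold, at -0.73 and Ube2g2, a ubiquitin-conjugating enzyme, at 0.37. At 72 h, 0 were higher and 3 lower, among them Erlin1 at -0.32 and Ubxn6 at -0.31. At 72 h against 24 h, Nfyc stood at -0.41 and Nfyb at 0.42 (3 regulators higher, 4 lower), and Gpx8 at -0.69 and Tmx4 at 0.40 (3 redox genes higher, 1 lower). Fkbp11 stood at -0.72 and Rcn3, an ER calcium-binding protein, at -0.38 (3 other chaperones higher, 5 lower). Man1a, at -0.61, was the 1 calnexin cycle enzyme called, and Erlin1 stood at 0.41 and Ubxn6 at -0.39 (3 other degradation factors higher, 4 lower). Over these lists and 4 more, 152 of 159 genes were tested. At 24 h, 24 were higher (15.8%) and 26 lower (17.1%). At 72 h, 6 were higher (3.95%) and 7 lower (4.61%). At 72 h against 24 h, 24 were higher (15.8%) and 25 lower (16.4%).

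**Figure D5:**
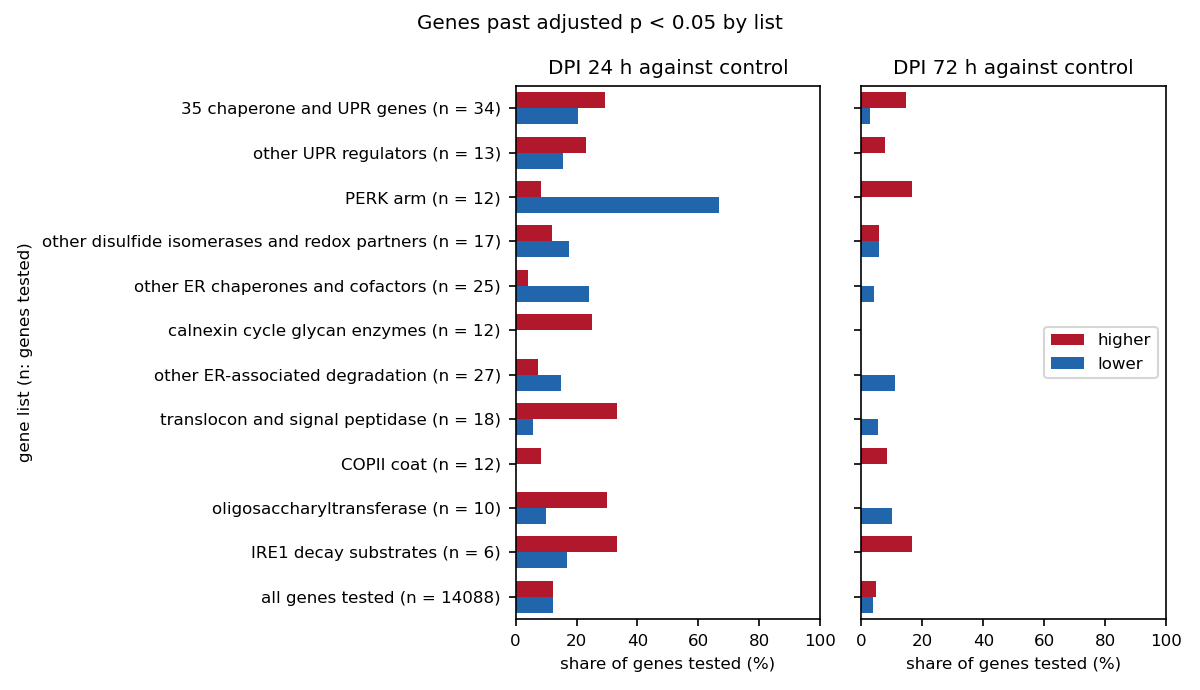
Percent of tested genes called higher (red) and lower (blue) in the 35 genes, in the other ER lists and in all genes, for DPI 24 h and DPI 72 h against control. At 24 h the 35 genes show 29.4% higher and 20.6% lower, against 12.4% and 12.3% of all genes.

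The exons of 10 of the 35 genes overlap those of another gene. The largest overlap with any single gene was 10.3% of a gene's exonic bases (Hsp90b1). Hsp90b1 and Manf each overlap several genes, and those stretches were not combined. For Derl2 the overlapping gene, Mis12 on the opposite strand, had more counts than Derl2 itself. Whether the counting used strand is not given in the sources used here, so reads in these stretches cannot be told apart.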

How the data were processed

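Per the labels' protocols, total RNA of mouse adult fibroblasts was made into TruSeq libraries for Illumina sequencing. The submitters' processing notes name STAR, RSEM, cutadapt, Trim Galore, edgeR, limma and the build GRCm38, with no versions, roles or order, and the annotation release is not given in the sources used here. The authors deposited raw counts per Ensembl gene as whole numbers. A second deposited table, named as normalized, held the same counts in all 159498 of its values (17722 genes), compared as whole numbers, and was not used further. Symbols, coordinates and exonic lengths came from GENCODE vM21 on GRCm38, and 105 IDs had no symbol.

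The filterByExpr function, applied by group, left 14088 genes with at least 99.87% of each library's counts. TMM factors ranged from 0.984 to 1.024. All 9 libraries were fitted with 1 mean per group by glmQLFit in edgeR 4.0.16 under R 4.3.3, and contrasts were tested two-sided with glmQLFTest, with Benjamini-Hochberg adjustment over all genes tested and a threshold of 0.05. The standard error of a log2 change was taken as its size over the square root of its F statistic. Levels are TMM-normalized CPM, per kilobase of exon where genes are compared. With 3 libraries per group, the smallest exact permutation p for 1 value is 0.1. Library pairs within groups differed beyond counting noise, so none was taken as a copy. The fit was tried on simulated counts with the same spread for all genes and no outlying library. That trial cannot show how the fit treats a library like control replicate 2.

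Promoter elements were searched by letters taken from general knowledge, in promoter sequences read from the RefSeq table. The 35 genes and all lists were chosen with earlier results of these data known. All 35 are accounted for. From each other ER list with a call, the 2 genes with the smallest p in that comparison are named, and Eif2ak3 is named besides. Alternatives were other scalings (RLE, upper quartile), filters (none, or CPM above 1 in 3 libraries), DESeq2 1.42.0, limma 3.58.1 with voom, a replicate block, a fit to the 2 groups of a comparison alone, leaving out single libraries, and stricter thresholds.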

Additional observations from a re-analysis of the deposited data

Results flagged for a closer look

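For 14 of the 34 tested genes the level at 72 h of DPI differed from that at 24 h, by the test of the difference itself (edgeR's quasi-likelihood test, adjusted over all genes tested, 3 libraries a time). The single control group has no stated time, so a change in the effect of DPI cannot be told apart from time in culture. As the controls are common to both times, the difference between the changes from control equals the log2 value of 72 h against 24 h. It was positive for Ero1l (2.07), Herpud1 (0.61), Pdia4 (0.25) and Edem1 (0.22). It was negative for Crebrf (-1.01), Sdf2l1 (-0.49), Creld2 (-0.44), Calr (-0.41), Dnajb11 (-0.38), Manf (-0.31), Canx (-0.30), Syvn1 (-0.28), Hspa13 (-0.27) and Pdia3 (-0.19). In all genes tested, 10.1% were higher and 11.2% lower in this comparison. Of the 14, Pdia3, Pdia4, Manf, Edem1 and Syvn1 lost the call when single libraries were left out, as given beside their values. Upper-quartile scaling in edgeR also removed the calls of Pdia3 (adjusted p = 0.0913) and Manf (0.0579). Unfiltered counts removed those of Pdia3 (0.135) and Edem1 (0.0524), and a replicate block that of Pdia3 (0.0636). With a log2 difference of at least 0.5 also asked for, 3 of the 14 remained, namely Ero1l, Herpud1 and Crebrf.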

How the results depend on the processing

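Over 17 alternatives of scaling, filter, tool, block and libraries, at the same threshold, no called change turned round, and 12 of 17 calls at 24 h, 3 of 6 at 72 h and 9 of 14 at 72 h against 24 h held in all 17. Of the genes not called, 7 of 17, 4 of 28 and 10 of 20 passed in at least 1 of them, and 3, 7 and 4 changed sign. Stricter thresholds left fewer. With a log2 change of at least 0.5 also asked for, 1 gene was higher and 1 lower at 24 h, 0 were higher and 1 lower at 72 h, and 2 were higher and 1 lower at 72 h against 24 h. At an adjusted p under 0.01, 7 were higher and 5 lower at 24 h, 2 and 1 at 72 h, and 2 and 7 at 72 h against 24 h. Under upper-quartile scaling the 24 h median was -0.0531, with 3 genes higher and 2 lower at 72 h. Fitting only the groups compared gave 2 higher at 72 h and 11 higher at 72 h against 24 h. Leaving out single libraries gave 2 to 7 higher and 1 to 3 lower at 72 h, and 2 to 11 higher at 72 h against 24 h, where the median ranged from -0.00112 to 0.0474. The cause of these shifts was not tested. Over all genes, leaving out libraries gave 1165 to 2297 higher and 1186 to 2122 lower at 24 h, 425 to 1100 and 311 to 865 at 72 h, and 951 to 2265 and 1002 to 2464 at 72 h against 24 h.

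With a replicate block, 3 genes were higher at 72 h, and Calr (adjusted p = 0.0912) and Herpud1 (0.074) lost that call, as did Creld2 at 24 h (0.0596) and Pdia3 at 72 h against 24 h (0.0636). Same-numbered libraries correlated at -0.0925 to 0.00265. With 3 libraries a group this cannot show whether they share more than a number, and the labels do not say. Depth limits Derl3, with 1 to 4 counts per library.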

Other observations

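Parts of the secretory pathway next to the folding machinery were also measured. Their counts stand beside 12.4% higher and 12.3% lower over all genes tested at 24 h, and 4.73% and 3.83% at 72 h. For 72 h against 24 h these shares were 10.1% and 11.2%. A single call in a list this short is no result about the list. Of 18 tested genes of the translocon and signal peptidase, 6 rose and 1 fell at 24 h, with a median log2 change of 0.12. Tram2, a translocon-associated protein known for its role in collagen synthesis, stood at 0.72 and the signal peptidase subunit Spcs3 at 0.27. At 72 h, 0 were higher and 1 was lower, Spcs3 at -0.22. At 72 h against 24 h, 1 was higher and 5 were lower, with Spcs3 at -0.48 and Srpr, a subunit of the signal recognition particle receptor, at -0.28. Of 10 tested subunits of the oligosaccharyltransferase, which attaches N-glycans, 3 rose and 1 fell at 24 h, with Krtcap2 at -0.92 and the catalytic subunit Stt3b at 0.34. At 72 h, 0 were higher and 1 was lower, Krtcap2 at -0.37. At 72 h against 24 h, 1 was higher, Krtcap2 at 0.54, and 3 were lower, among them Stt3a at -0.23. Of 12 COPII coat genes, which carry cargo out of the ER, 1 rose at 24 h and 1 at 72 h, in both cases Sec24d, at 0.36 and 0.29. The log2 change at 24 h was above 0 for 9 of the 12 and below 0 for 3, with a median of 0.16. At 72 h the median was 0.00.

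IRE1 is known to cut certain mRNAs besides Xbp1, and of 6 genes listed as such substrates 2 rose and 1 fell at 24 h. Over all genes tested, 12.4% were higher and 12.3% lower at 24 h, and 4.73% and 3.83% at 72 h. For 72 h against 24 h these shares were 10.1% and 11.2%, and a single call among so few genes is no result about the list. Pdgfrb, a growth factor receptor, stood at 0.91 and Col6a1, a collagen chain, at 0.50. At 72 h, 1 was higher, Col6a1 at 0.68, and 0 were lower. At 72 h against 24 h, 1 was higher, Hgsnat at 0.40, and 1 was lower, Pdgfrb at -0.82. Pdgfrb is also on the list of fibroblast markers, whose summed level differed between the groups, and the part of that in these values was not tested.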
